A study of Mus musculus with 10 samples.

Results

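The DNA replication licensing genes described here are 10 genes that form, complete or switch on the machinery that copies DNA: Mcm2, Mcm3, Mcm4, Mcm5, Mcm6, Mcm7, Gins1, Pcna, Ccnd1 and Ccne2. They were chosen by gene symbol from a platform table that names 22180 genes by a probe set with 1 symbol, and the brightest such probe set stood for a gene. Of the 10, 9 were measured in this way. The probe set of Ccne2, the gene of cyclin E2, is assigned to Ints8 as well, so no level is given for Ccne2. Mcm7 has 2 further probe sets that are assigned to the microRNA genes Mir25 or Mir93 as well, and these were left out. All 9 measured members were among the 13942 genes tested, which lay above the array median on at least 2 arrays. Gins1 met this with 3 arrays and Mcm3 with 4.

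The samples were livers of female BALB/cByJ mice, 3 months old, and RNA was hybridised to 10 Affymetrix Mouse Gene 2.1 ST arrays, which read exons along a transcript. The groups were Pml knockout with food removed for 6 h (3 arrays), Pml wild type with food removed for 6 h (3), Pml knockout fed ad libitum (2) and Pml wild type fed ad libitum (2). The comparisons ask how a short fast changes the liver transcriptome, and how that depends on Pml, which encodes the scaffold of PML nuclear bodies. The knockout allele is not described in the labels, which also do not say whether each array is a separate animal, so that p values measure the spread between these arrays.

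Before S phase, origin recognition proteins with Cdc6 and Cdt1 load a ring of 6 subunits, MCM2 to MCM7, onto DNA, a step called licensing. The ring becomes the active replicative helicase when Cdc45 and the GINS complex, of which Gins1 is a subunit, join it. PCNA is the sliding clamp that holds DNA polymerases on the template, and cyclins D1 and E2 activate the kinases that carry a cell through G1 into S phase. E2F transcription factors, held back by Rb family proteins, drive many of these genes. Most hepatocytes of an adult liver are quiescent, and licensing factors are known for being scarce in quiescent cells.

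Values are log2 of the deposited intensity, changes are differences of log2 means with their standard error (SE) from limma, and p values are adjusted by Benjamini-Hochberg over the 13942 genes. A gene is called at an adjusted p under 0.05. The array median, between 5.44 and 5.57 on the log2 scale, was taken as the lowest level read. A called gene with no array of one group above it has only a lower bound, the brighter group over that level, written as at least N-fold. Probe sets differ in brightness for reasons other than transcript number, so levels are compared between arrays and not between genes. Liver RNA comes from many cell types, and fewer cells of a type cannot be told apart from less RNA per cell.

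Pml was lower on every knockout array, at 6.05 to 6.91, against 7.50 to 8.37 on wild type arrays (difference -1.61, two-sided exact permutation test over 252 divisions, p = 0.00794, the smallest it can give; n = 5 each). The labels do not say which part of Pml is deleted, nor whether its probes lie there. All 8 hepatocyte markers listed, such as Alb, lay above the array median on at least 1 array, and the means of the list over its genes were 11.29 to 11.54 in fasted knockout, 11.39 to 11.52 in fasted wild type, 11.54 to 11.61 in fed knockout and 11.58 to 11.59 in fed wild type. The fasted knockout arrays did not form 1 group in genes of the circadian clock. Their clock score, the mean of 4 activator-phase genes minus the mean of 7 opposite-phase genes, was -2.54, -2.25 and 2.55 in replicates 1, 2 and 3. It was between 2.09 and 2.75 in fasted wild type, -1.73 and -1.82 in fed knockout, and -0.43 and -1.03 in fed wild type. Replicate 3 of fasted knockout therefore lay with fasted wild type, while replicates 1 and 2 lay on the side of the fed arrays and beyond them. No collection time is stated. In wild type, the fast and the clock state cannot be told apart, and for the members the comparison of the fasted groups is given with and without these arrays.

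Most members were lowest in fasted wild type liver. After the fast, 5 of the 9 measured members were called lower in wild type (Mcm2, Mcm4, Mcm5, Gins1 and Pcna), beside 13.2% of all genes. None was called lower in knockout, where 0.868% of all genes were. Between the fasted groups 4 (Mcm4, Mcm5, Gins1 and Pcna) were called higher in knockout, beside 6.68% of all genes. Gins1 passed the filter only with fasted knockout arrays, so its call there cannot stand as a test. Fasted knockout replicate 3 lay below the fed knockout mean for Mcm2, Mcm3, Mcm5, Mcm6 and Ccnd1, and above it for Mcm4, Mcm7, Gins1 and Pcna. The members differ among themselves: Mcm7 and Ccnd1 did not share the pattern in full, as described below. The plot of levels by array shows the 9 members side by side.

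**Figure D1:**
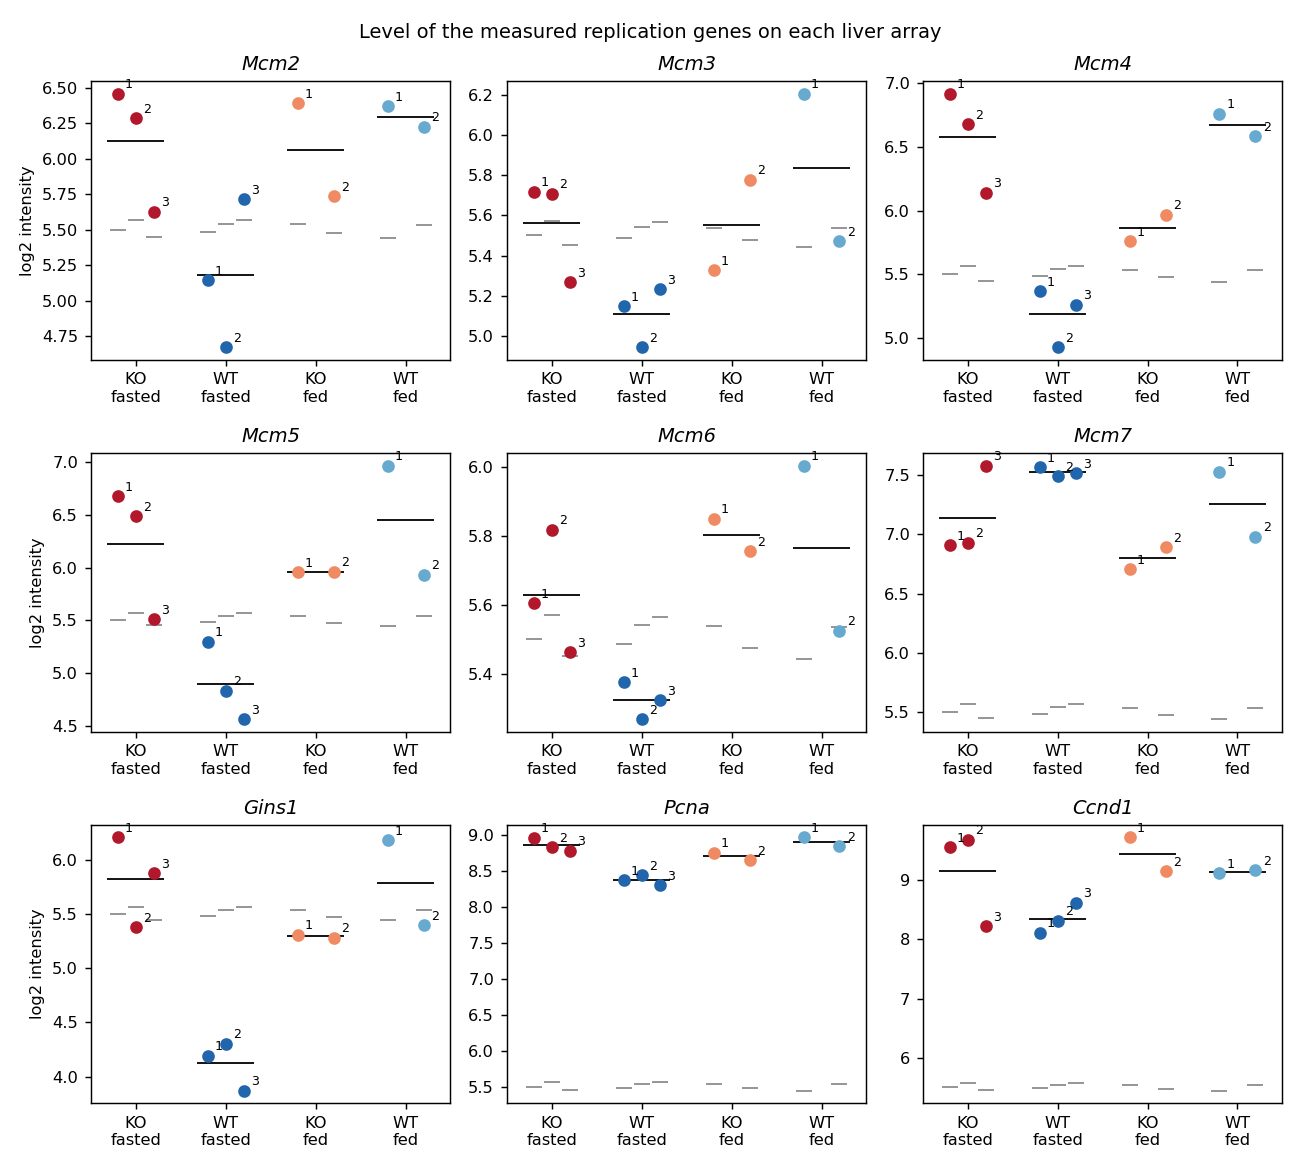
Log2 intensity (vertical axis, with its own range in each panel) of the 9 measured members on each of 10 liver arrays, by group. Points are arrays numbered by replicate, black bars are group means and grey dashes are the array medians (5.44 to 5.57). Fasted wild type is lowest for Mcm4, Mcm5, Gins1 and Pcna without overlap with the other groups, while Mcm7 has its highest group mean there.

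The MCM subunits come first. Mcm4 had a log2 intensity of 6.92, 6.68 and 6.14 in fasted knockout livers, 5.37, 4.93 and 5.26 in fasted wild type, 5.76 and 5.97 in fed knockout, and 6.76 and 6.59 in fed wild type. Every fasted wild type array was below every other array, and below its array median. For Mcm5 the values were 6.68, 6.48 and 5.51 in fasted knockout, 5.30, 4.83 and 4.56 in fasted wild type, 5.96 and 5.96 in fed knockout, and 6.97 and 5.93 in fed wild type. Fasted wild type was again lowest, and fasted knockout replicate 3 lay 0.61 above its mean, much closer than replicates 1 (1.78) and 2 (1.59). Mcm2 was at 6.46, 6.28 and 5.63 in fasted knockout, 5.15, 4.67 and 5.72 in fasted wild type, 6.39 and 5.74 in fed knockout, and 6.37 and 6.23 in fed wild type. Here fasted knockout replicate 3 fell within the range of fasted wild type, of which replicate 3 was above the array median and the other 2 were not.

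Mcm3 and Mcm6 were close to the floor. Mcm3 reached 5.72, 5.71 and 5.27 in fasted knockout, 5.15, 4.94 and 5.23 in fasted wild type, 5.33 and 5.78 in fed knockout, and 6.21 and 5.47 in fed wild type. It was at or below the array median on 6 of 10 arrays. Mcm6 stood at 5.61, 5.82 and 5.46 in fasted knockout, 5.38, 5.27 and 5.33 in fasted wild type, 5.85 and 5.76 in fed knockout, and 6.00 and 5.53 in fed wild type, with 4 arrays at or below the median. For both genes the 3 fasted wild type arrays were the lowest of all 10, by margins that were small beside the spread of the fed arrays. Mcm7, the subunit whose gene also hosts microRNAs, ran the other way: 6.91, 6.93 and 7.58 in fasted knockout, 7.57, 7.49 and 7.52 in fasted wild type, 6.71 and 6.89 in fed knockout, and 7.53 and 6.98 in fed wild type. It was above the array median on every array, with its highest group mean, 7.52 ± 0.04 (SD, n = 3), in fasted wild type.

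The helicase partner Gins1, the clamp Pcna and the G1 cyclin Ccnd1 follow. Gins1 measured 6.21, 5.38 and 5.88 in fasted knockout, 4.19, 4.30 and 3.87 in fasted wild type, 5.31 and 5.28 in fed knockout, and 6.18 and 5.40 in fed wild type. It was dim, at or below the array median on 7 of 10 arrays including both fed knockout arrays, and the 3 fasted wild type arrays were below all others. Pcna was bright and tightly measured, with 8.97, 8.83 and 8.79 in fasted knockout, 8.38, 8.44 and 8.31 in fasted wild type, 8.76 and 8.66 in fed knockout, and 8.97 and 8.85 in fed wild type. No fasted wild type array overlapped with any other. Ccnd1 came to 9.56, 9.68 and 8.23 in fasted knockout, 8.11, 8.31 and 8.62 in fasted wild type, 9.73 and 9.16 in fed knockout, and 9.12 and 9.17 in fed wild type. Fasted knockout replicate 3 lay inside the fasted wild type range for Ccnd1, and replicates 1 and 2 lay among the fed arrays.

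Promoter sequences were searched, for the members with a window at hand, for the words that E2F factors are known to bind. RefSeq promoter windows (build GRCm38.p6, 250 bases before to 50 after the start) covered 6 members, namely Mcm2, Mcm3, Mcm5, Mcm6, Mcm7 and Pcna. An E2F word, taken as TTTCCCGC, TTTCGCGC, TTTGCCGC or TTTGGCGC on either strand, was in a window of 4 of the 6: Mcm3, Mcm5, Mcm6 and Mcm7. Of all 32851 windows in the table, 744 (2.26%) held one. The words of Mcm3 lay 19 and 38 bases after its start. The 250 bases before the start of Mcm5 (chr8:75109259-75109508, forward strand), Mcm6 (chr1:128359706-128359955, reverse strand), Mcm7 (chr5:138171884-138172133, reverse strand) and Pcna (chr2:132253181-132253430, reverse strand) are shown 5′ to 3′ in the direction of the gene, with E2F words in capitals; Pcna, a called member without such a word, stands beside them.
Mcm5: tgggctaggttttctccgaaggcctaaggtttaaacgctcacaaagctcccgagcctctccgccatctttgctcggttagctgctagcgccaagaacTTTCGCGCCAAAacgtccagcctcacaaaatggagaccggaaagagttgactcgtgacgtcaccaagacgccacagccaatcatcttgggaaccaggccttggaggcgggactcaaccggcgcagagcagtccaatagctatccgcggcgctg
Mcm6: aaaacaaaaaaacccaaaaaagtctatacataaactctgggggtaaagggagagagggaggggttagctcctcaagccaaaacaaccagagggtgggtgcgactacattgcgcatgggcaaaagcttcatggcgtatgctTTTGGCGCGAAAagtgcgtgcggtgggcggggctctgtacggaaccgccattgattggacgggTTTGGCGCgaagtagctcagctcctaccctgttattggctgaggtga
Mcm7: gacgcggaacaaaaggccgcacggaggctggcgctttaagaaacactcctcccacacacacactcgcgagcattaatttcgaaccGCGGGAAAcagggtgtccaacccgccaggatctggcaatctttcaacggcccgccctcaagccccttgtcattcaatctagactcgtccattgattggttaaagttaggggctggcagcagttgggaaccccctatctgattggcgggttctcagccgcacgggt
Pcna: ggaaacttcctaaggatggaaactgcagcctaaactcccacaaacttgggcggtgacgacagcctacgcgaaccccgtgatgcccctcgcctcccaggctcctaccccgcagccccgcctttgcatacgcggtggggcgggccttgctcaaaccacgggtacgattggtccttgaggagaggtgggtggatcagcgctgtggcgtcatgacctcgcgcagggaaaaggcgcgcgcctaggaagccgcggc
In Mcm5 the capitals hold 2 overlapping words, one on each strand, that begin 153 and 149 bases before the start. Mcm6 has such an overlapping pair at 110 and 106 bases and a further word at 47 bases, and Mcm7 has a word at 165 bases on the opposite strand and another 16 bases after its start. The second window of Mcm7 held none.

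Members with and without an E2F word were among those that fell. Mcm5, which fell with fasting in wild type, and Mcm7, which was not called and had its highest mean there, both hold them, while Mcm2 and Pcna fell without one in the window. The CCAAT box, the word CCAAT on either strand, was present in 6 of 6 members and in 37.4% of all windows. The E-box CACGTG, a word bound by clock and Myc proteins, was in 0 of the 6 and in 7.15% of all windows. The cell cycle homology region TTTGAA was found in Mcm2 alone of the 6, and in 17.9% of all windows. These matches describe letters only.

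The wild type arrays address how fasted and fed liver differ when Pml is intact. Mcm4 fell at least 2.21-fold (fitted log2 -1.48, SE 0.22, adjusted p = 0.00195), and Gins1 fell at least 1.20-fold (fitted -1.67, SE 0.27, adjusted p = 0.00309). Mcm5 fell at least 1.89-fold (fitted -1.55, SE 0.38, adjusted p = 0.0185). Pcna fell 1.45-fold (-0.53, SE 0.10, adjusted p = 0.00725) and Mcm2 fell 2.17-fold (-1.12, SE 0.33, adjusted p = 0.0375). Of all genes 21.4% were called in this comparison by limma, 8.23% as higher and 13.2% as lower, against 5 of the 9 members, all lower (n = 3 fasted and 2 fed). Mcm3 (-0.73, adjusted p = 0.0523), Mcm6 (-0.44, adjusted p = 0.0712), Ccnd1 (-0.80, adjusted p = 0.169) and Mcm7 (0.27, adjusted p = 0.415) were not called. Arrays of fasted and fed wild type did not overlap for 8 of 9 members, all lower, where 29.7% of all genes did so in that direction and 23.0% in the other. The median difference over the 9 members was -0.80, beside -0.02 over all genes.

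The call of Mcm4 in wild type held in all 20 alternatives (adjusted p up to 0.0215). Gins1 held its call in all 19 alternatives run for it (adjusted p up to 0.0288), but it did not pass the stricter filter and was not tested there. Of the wild type arrays, only fed replicate 1 (6.18) had Gins1 above the array median. The other fed array (5.40) and all fasted ones were at or below it. The call of Gins1 therefore rests largely on values below the lowest level read, and its holding does not make it firm. Pcna lost its call when fed wild type replicate 1 was omitted (-0.47, adjusted p = 0.0650) or the clock score was added to the model (-0.46, adjusted p = 0.0722). Mcm5 lost its call on omission of the same array (-1.04, adjusted p = 0.159), without fasted wild type replicate 3 (-1.39, adjusted p = 0.0589) and with the clock covariate (-0.97, adjusted p = 0.180). Mcm2 lost it in 8 of 19 alternatives, with adjusted p up to 0.288, the clock covariate among them. That fed wild type array was the brighter of the pair for 7 of the 8 members with a lower level after fasting.

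In Pml knockout liver the fast changed no member by this test. The differences were 0.71 for Mcm4 (SE 0.22, adjusted p = 0.124), 0.53 for Gins1 (SE 0.27, adjusted p = 0.327), 0.16 for Pcna (SE 0.10, adjusted p = 0.448) and 0.06 for Mcm2 (SE 0.33, adjusted p = 0.941). Mcm5 was at 0.26 (SE 0.38) and Ccnd1 at -0.28 (SE 0.38), and the 95% intervals of -0.59 to 1.12 and -1.14 to 0.57 allow changes in both directions. By limma 0 of 9 members were called, where 1.68% of all genes were, 0.811% as higher and 0.868% as lower; 1 member, Mcm4, had an unadjusted p under 0.05 (n = 3 fasted and 2 fed). Arrays did not overlap for Mcm4, Mcm7, Gins1 and Pcna, all higher after fasting, as for 18.3% of all genes, with 18.5% lower. The median over the members was 0.16, beside 0.01 over all genes.

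Fed knockout and fed wild type livers did not differ in any member by this test. The nearest was Mcm4, at 5.86 ± 0.15 (SD, n = 2) in fed knockout and 6.67 ± 0.12 (SD, n = 2) in fed wild type (difference -0.81, SE 0.24, limma adjusted p = 0.350). Its unadjusted p was 0.00719, the sole one of the 9 under 0.05, and by limma 0 of 9 members were called, beside 0.0861% of all genes, 0.0574% as higher and 0.0287% as lower. Mcm4, Mcm7, Gins1 and Pcna had arrays that did not overlap, all lower in knockout, as did 23.7% of all genes in that direction and 16.2% in the other. The differences of the 9 members lay between -0.81 and 0.30.

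Between the fasted groups, 4 members were higher in knockout. Gins1 was at least 1.22-fold higher (fitted log2 1.70, SE 0.24, adjusted p = 0.00630), Mcm4 at least 2.06-fold (fitted 1.39, SE 0.19, adjusted p = 0.00606) and Mcm5 at least 1.62-fold (fitted 1.33, SE 0.34, adjusted p = 0.0374). Pcna was 1.40-fold higher (0.49, SE 0.09, limma adjusted p = 0.0145). Gins1 was above the array median on fasted knockout replicates 1 and 3 and fed wild type replicate 1 alone. It passed the filter only with the fasted knockout arrays, so its call here cannot stand as a test. Limma called 11.1% of all genes here, 6.68% as higher and 4.43% as lower, against 4 of 9 members, all higher (n = 3 each). Mcm2 (0.94, adjusted p = 0.0668), Ccnd1 (0.81, adjusted p = 0.153), Mcm3 (0.46, adjusted p = 0.187), Mcm6 (0.31, adjusted p = 0.181) and Mcm7 (-0.39, adjusted p = 0.227) were not called. Arrays did not overlap for 6 members, all higher, where 17.9% of all genes did so and 15.1% were lower without overlap. The plot of differences sets the comparisons side by side; those with a shared group share its arrays.

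**Figure D2:**
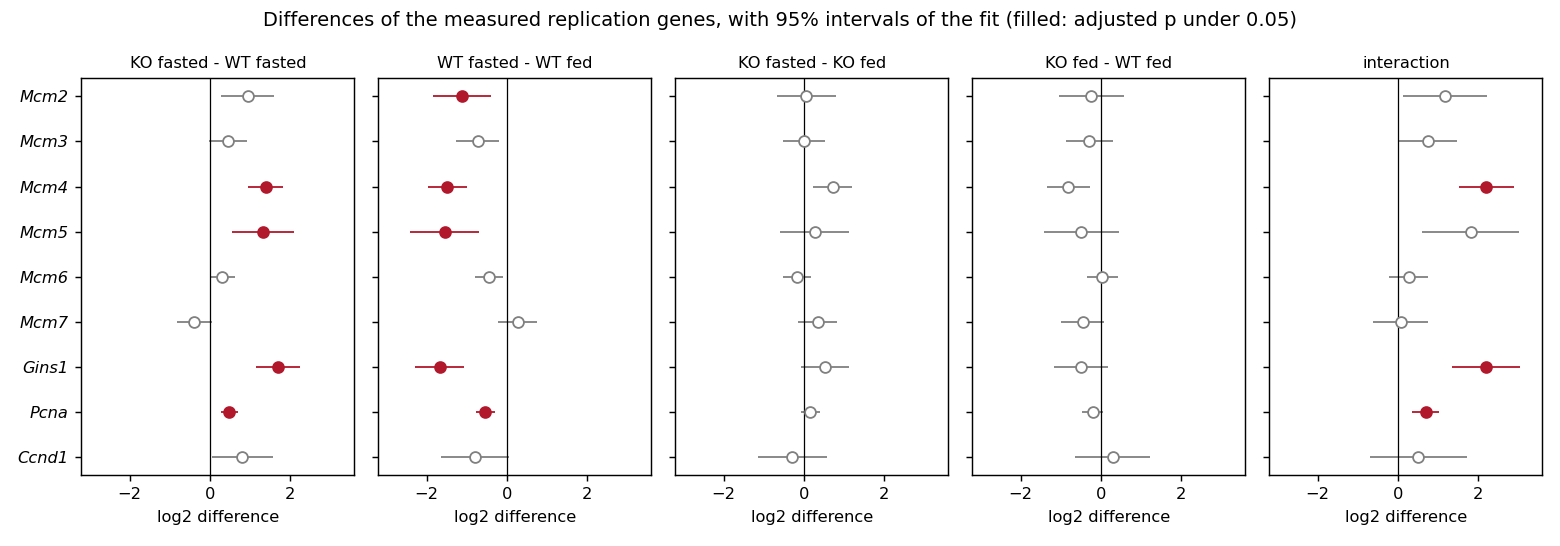
Log2 differences (horizontal axis) of the 9 measured members in 5 comparisons, with the 95% interval of the limma fit; filled red points have an adjusted p under 0.05. Mcm4, Mcm5, Gins1 and Pcna lie above 0 between the fasted groups and, with Mcm2, below 0 for fasting in wild type, while no member is filled for fasting in knockout or for the fed groups.

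The fasted knockout arrays are given singly, since their clock genes differed. Such counts of single arrays were not made over all genes, so the counts of members below have no share to be read against. Replicates 1 and 2 were each above every fasted wild type array for 8 of the 9 members and below for 1, Mcm7. Replicate 3, whose clock genes lay with fasted wild type, was above every fasted wild type array for 7 of 9. Its margins over the fasted wild type mean were 1.76 for Gins1, 0.95 for Mcm4 and 0.41 for Pcna, but 0.16 for Mcm3, 0.14 for Mcm6, 0.06 for Mcm7 and -0.12 for Ccnd1. With replicate 3 as the sole fasted knockout array, the spread of that group cannot be measured, so only sizes are given here. Gins1 was at 1.76, Mcm4 at 0.95, Pcna at 0.41 and Mcm5 at 0.61. For Gins1, Mcm4 and Mcm5 every fasted wild type array was at or below its array median, so these sizes are not measured in full. Replicate 3 was itself near or below its array median (5.45) for Mcm3 (5.27), Mcm5 (5.51) and Mcm6 (5.46).

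Taking the clock score as a covariate left 0 of the 9 called, where limma called only 58 of all 13942 genes. The differences were 1.77 for Gins1 (adjusted p = 0.0625), 1.01 for Mcm4 (adjusted p = 0.0675), 0.42 for Pcna (adjusted p = 0.153) and 0.74 for Mcm5 (adjusted p = 0.368). The values of Gins1, Mcm4 and Mcm5 here are set against fasted wild type arrays at or below the array median, so their sizes are not measured beyond the bound. Ccnd1 turned to -0.07 and Mcm7 to 0.06. Without fasted knockout replicate 3 the count was 7 of 9, beside 1501 of the 13942 genes. Mcm2 (1.19, adjusted p = 0.0333) and Ccnd1 (1.27, adjusted p = 0.00685) were then called as higher and Mcm7 (-0.61, adjusted p = 0.0415) as lower. The count was 2 without fasted knockout replicate 1 (435 of all genes) or fasted wild type replicate 3 (536 of all genes). Each omission ended the calls of Mcm5 and Pcna. The call of Mcm5 was lost in 10 of 20 alternatives (adjusted p up to 0.457).

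**Figure D3:**
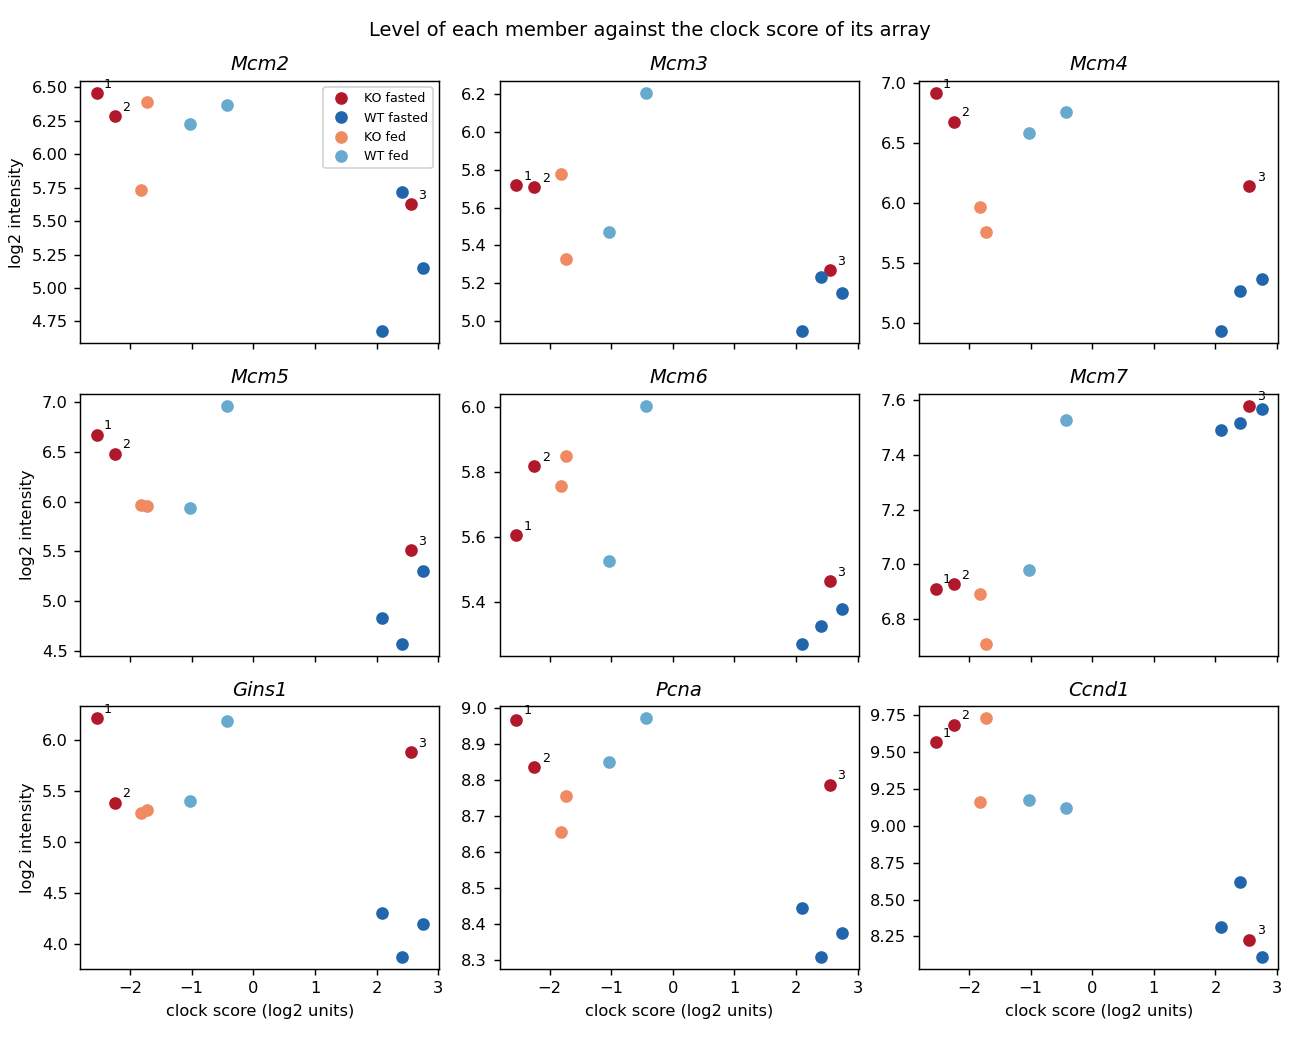
Log2 intensity (vertical axis) of the 9 measured members against the clock score of each array in log2 units (horizontal axis), with points coloured by group and fasted knockout arrays numbered by replicate. At high clock scores, fasted knockout replicate 3 lies above the 3 fasted wild type arrays for Gins1, Mcm4 and Pcna and among them for Mcm2 and Ccnd1.

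The test of the difference between the fasting responses, the genotype by fasting interaction, called 3 of 9 members, beside 2.11% of all genes, 1.32% as higher and 0.789% as lower. Mcm4 differed by 2.20 (SE 0.31, adjusted p = 0.0264), Gins1 by 2.19 (SE 0.38, adjusted p = 0.0325) and Pcna by 0.69 (SE 0.15, adjusted p = 0.0488); a positive value means a response less negative or more positive in knockout. For Mcm4 and Gins1 these sizes include fasted wild type values at or below the array median. Gins1 passed the filter only with fasted knockout arrays, so its call cannot stand as a test of the interaction. Mcm5 (1.82, SE 0.54, adjusted p = 0.111), Mcm2 (1.18, SE 0.46, adjusted p = 0.198), Mcm3 (0.74, SE 0.33, adjusted p = 0.250), Ccnd1 (0.51, SE 0.54, adjusted p = 0.635), Mcm6 (0.27, SE 0.22, adjusted p = 0.530) and Mcm7 (0.07, SE 0.31, adjusted p = 0.927) were not called. The call of Pcna was lost in 16 of 19 alternatives (adjusted p up to 0.154), of Gins1 in 10 of 18 (up to 0.104) and of Mcm4 in 4 of 19 (up to 0.0851). Leaving out either fed knockout array left 0 members called, and leaving out fed wild type replicate 1, fasted knockout replicate 1 or any fasted wild type array left 1. Calls over all genes fell as well, from 294 to 13 and 2 without fed knockout replicates 1 and 2 in turn. They fell to 83 without fed wild type replicate 1 and 52 without fasted knockout replicate 1. Without fasted wild type replicates 1, 2 and 3 in turn they fell to 60, 40 and 56.

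Markers of other liver cells were set beside these values. The 8 macrophage markers, all detected, had a mean log2 level of 8.40 to 8.60 on fasted knockout arrays, 8.08 to 8.16 on fasted wild type, 8.40 to 8.44 on fed knockout and 8.25 to 8.55 on fed wild type. Of the 8, 4 were called higher in fasted knockout than in fasted wild type (6.68% of all genes), and 2 were called lower with fasting in wild type (13.2% of all genes). The macrophage list thus moved with the members, and its part in their differences was not tested. Sinusoidal endothelial markers ran the other way, at 8.83 to 9.23 in fasted knockout and 9.24 to 9.46 in fasted wild type. All 5 neutrophil markers, and 2 of 6 T and NK markers on the array (Cd3d and Ncr1), were at or below the array median on every array.

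The other genes of the replication pathway were followed in 7 lists of 156 genes, of which 120 were tested. With fasting in wild type 36 of the 120 fell and 7 rose; in knockout 0 fell and 1 rose, and between fed knockout and fed wild type 0 were called. Between fasted knockout and fasted wild type 32 were higher and 2 lower, and the interaction called 9, all higher. These counts moved with the arrays and the model used. Between the fasted groups 34 calls became 1 with the clock covariate and 0 with fasted knockout replicates 1 and 2 left out (limma, 40 at an unadjusted p under 0.05 in each), 12 on omission of fasted knockout replicate 1 and 14 on that of fasted wild type replicate 3. Calls over all 13942 genes shrank too, and 1549 between the fasted groups became 58 under that covariate. They numbered 435 once array 1 of fasted knockout was dropped, and 536 once array 3 of fasted wild type was. With the clock covariate the 1 list call was Prim2 (1.34, adjusted p = 0.0484). The 9 interaction calls became 3 with the clock covariate and 0 without those 2 fasted knockout arrays (38 unadjusted), without either fed knockout array (38 and 39 unadjusted) or with no filter (48 unadjusted). The differences between the fasted groups given for single lists below are those with all arrays, and each named one lost its call with replicates 1 and 2 left out. For reading the lists, 13.2% of all genes were called lower and 8.23% higher with fasting in wild type, and 6.68% higher and 4.43% lower between the fasted groups. The interaction called 1.32% of all genes as higher and 0.789% as lower. Its calls over all genes went from 294 to 96 with the clock covariate, and to 4 of 22180 genes with no filter. The loss of list calls was therefore not confined to replication genes.

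Replication fork genes had 13 of 24 tested members lower and 1 higher with fasting in wild type (median -0.63, all genes -0.02), and 12 higher and 1 lower in fasted knockout against fasted wild type (median 0.67, all genes 0.01). Pold2, a subunit of DNA polymerase delta, had 8.79, 8.54 and 8.72 in fasted knockout, 7.17, 7.75 and 7.69 in fasted wild type, 9.08 and 8.90 in fed knockout, and 8.97 and 9.36 in fed wild type. It was bright and fell by 1.63 in wild type (SE 0.19, adjusted p = 0.000760), with all fasted wild type arrays well below the others. The primase subunit Prim2 fell by 1.30 (adjusted p = 0.00150) and was 1.19 higher in fasted knockout (adjusted p = 0.00552). Rpa1 and Rpa2 encode subunits of the protein that coats single-stranded DNA, and Rpa1 fell by 0.96 (limma adjusted p = 0.00149). Rpa2 was above the array median on the fed wild type arrays alone and passed the filter through them. Its fall of at least 1.04-fold therefore cannot stand as a test of the fast. Rpa2 is counted among the 13 and, with both fasted groups at or below the median, among the 12. The exception in direction was Pole4, an accessory subunit of DNA polymerase epsilon singled out after its values were seen. It was at 0.88 in wild type fasting (limma adjusted p = 0.00395) and -0.59 between the fasted groups (adjusted p = 0.0270).

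Nucleotide supply had 10 of 19 members lower with fasting in wild type (median -0.52), 0 higher, and 7 higher in fasted knockout against fasted wild type (median 0.38). Thymidine kinase Tk1 was at 8.57, 8.52 and 7.40 in fasted knockout, 7.06, 6.93 and 6.76 in fasted wild type, 8.99 and 9.12 in fed knockout, and 8.73 and 8.62 in fed wild type. It fell by 1.75 in wild type (SE 0.30, adjusted p = 0.00371), and fasted knockout replicate 3 stood between the other fasted knockout arrays and fasted wild type. Dut, the enzyme that removes dUTP, fell at least 1.36-fold (adjusted p = 0.00383). The serine hydroxymethyltransferases Shmt1 (-0.55) and Shmt2 (-0.51) and the purine enzyme Atic (-0.59) fell too.

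Origin licensing and firing had 4 of 21 members lower with fasting in wild type, a share near that of all genes (13.2%), and 6 higher in fasted knockout against fasted wild type (medians -0.27 and 0.30). Topbp1, a scaffold needed to fire origins, fell by 0.95 (adjusted p = 0.00132) and was 0.70 higher in fasted knockout (adjusted p = 0.00887). Mcm10, an initiation factor outside the helicase ring, fell by 0.66 (adjusted p = 0.0167) and was 0.74 higher in fasted knockout (adjusted p = 0.0136). Mcm8, a relative of the ring subunits that works in DNA repair, fell at least 1.23-fold, and Wdhd1, which ties the helicase to DNA polymerase alpha, fell at least 1.16-fold. Cdt1, the partner of Cdc6 in loading the ring (0.61, limma adjusted p = 0.0260), and Gins3, another GINS subunit (0.47, adjusted p = 0.0293), made up the 6; both are named after their values were seen. Mcm8 is counted among the 6, but it passed the filter only with fasted knockout replicates 1 and 3. Its call there cannot stand as a test.

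G1 cyclins, kinases and inhibitors had 2 of 18 members lower, Cdk6 (-0.76, adjusted p = 0.0298) and Skp2 (-0.75, adjusted p = 0.0499), and 1 higher with fasting in wild type, shares no larger than those of all genes (13.2% lower and 8.23% higher). Skp2 lost its call in 14 of 19 alternatives and Cdk6 in 7 of 20. The higher one was Cdkn1a, the inhibitor p21, which rose at least 57.1-fold (adjusted p = 0.0116). Its level was 5.26, 6.27 and 10.84 in fasted knockout, 11.30, 11.29 and 11.39 in fasted wild type, 6.44 and 4.26 in fed knockout, and 5.13 and 5.45 in fed wild type, so that it divided fasted knockout as the clock genes did. None of the 18 was called by limma between the fasted groups (Cdkn1a -3.87, adjusted p = 0.0638). The E2F and Rb family had 2 of 16 higher, the atypical repressor E2f8 (2.82, SE 0.36, limma adjusted p = 0.00112) and Myc (1.36, adjusted p = 0.00955), and 1 lower, Rbl1, which encodes p107 (-1.43, adjusted p = 0.00217). Such small counts do not set the family apart from all genes (8.23% higher and 13.2% lower). E2f8 was at 7.95, 8.96 and 9.14 in fasted knockout and 9.73, 9.57 and 9.74 in fasted wild type, against 7.55 and 6.75 in fed knockout and 7.22 and 6.50 in fed wild type. Myc was the 1 gene of all lists called with fasting in knockout (1.69, adjusted p = 0.0323), a call lost in 12 of 20 alternatives, 7 of which left out 1 array (adjusted p up to 0.117). Between the fasted groups E2f5 (0.42, adjusted p = 0.0198) and Rbl1 (0.86, adjusted p = 0.0244) were higher in knockout.

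Mitosis genes were mostly too dim to test: 11 of 24 on the array passed the filter. With fasting in wild type Mad2l1, a spindle checkpoint protein (-1.22, adjusted p = 0.00251), and Kif20a, a mitotic kinesin (-0.97, adjusted p = 0.0334), were lower, and Mad2l1 (0.83, adjusted p = 0.0179) and the centromeric histone Cenpa (0.47, adjusted p = 0.0325) were higher in fasted knockout than in fasted wild type. Cenpa lost that call in 11 of 20 alternatives, and Kif20a lost its call in 8 of 19. The replication checkpoint list was mixed, with 4 of 11 lower and 3 higher in wild type fasting. The kinases Atr (-0.84, adjusted p = 0.00150) and Atm (-0.78, adjusted p = 0.00179) and the repair gene Brca2 (-0.85, adjusted p = 0.0101) fell. Rad1, a subunit of the 9-1-1 clamp (0.70, adjusted p = 0.0193), and the p53 ubiquitin ligase Mdm2 (0.38, adjusted p = 0.0453) rose, although Mdm2 lost its call in 13 of 20 alternatives and Rad1 in 7 of 19. Chek2 (-0.60, adjusted p = 0.0336) and Rad17 (0.51, adjusted p = 0.0262), named after their values were seen, were the others.

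**Figure D4:**
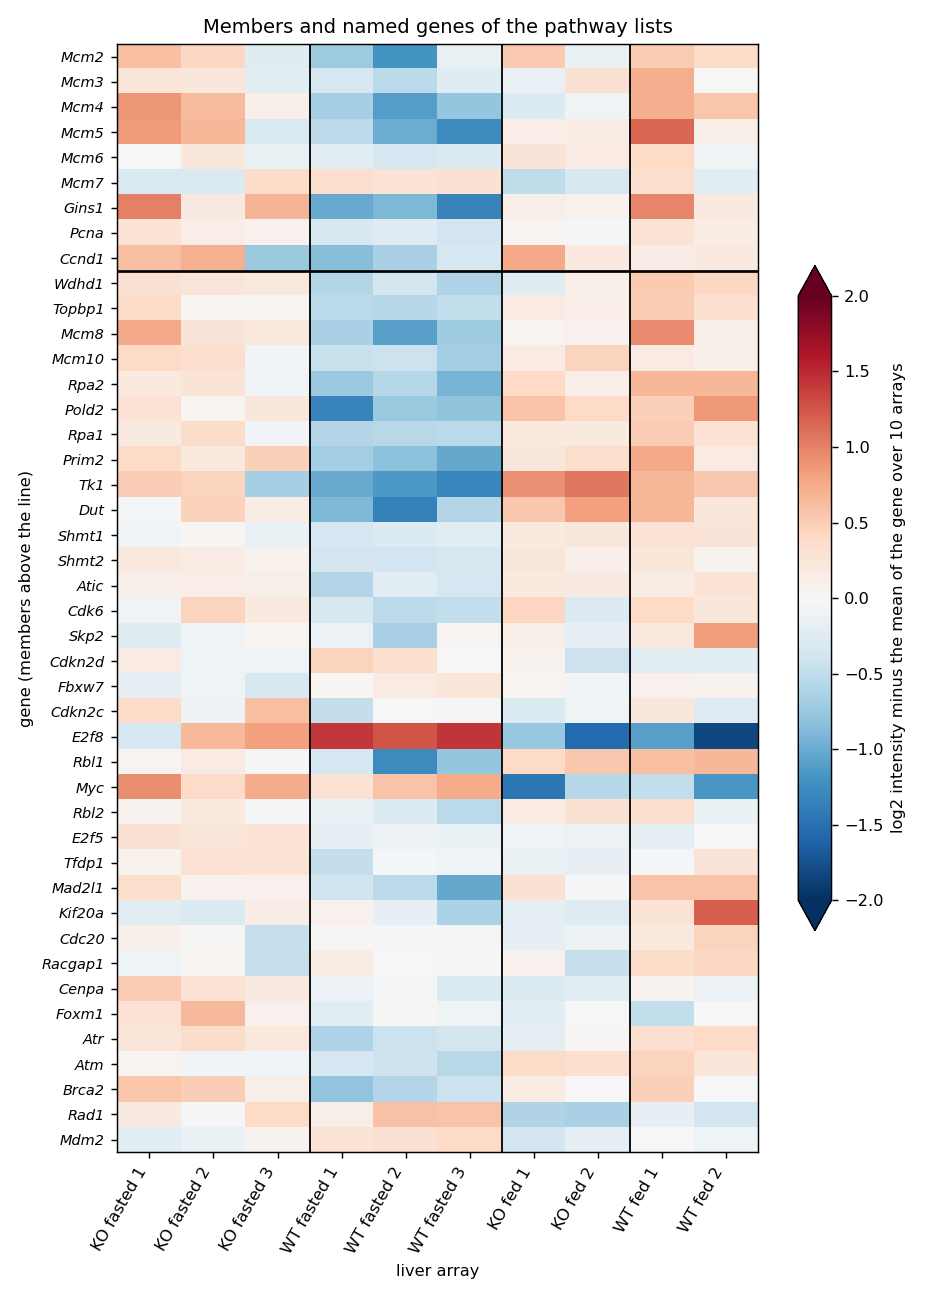
Log2 intensity of the 9 measured members (above the line) and of the named genes of the pathway lists, minus the mean of each gene over 10 arrays (colour, limits -2 to 2), with arrays in columns by group. The 3 fasted wild type columns are below the gene mean for most rows, including Mcm4, Gins1, Pcna, Pold2 and Prim2, and above it for Mcm7, E2f8 and Myc; Cdkn1a, with a range of 7.13, is not drawn.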

How the data were processed

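Liver RNA was hybridised to 10 Mouse Gene 2.1 ST arrays. The authors deposited linear intensity values, normalized, for 41345 probe sets. Per the submitters' processing notes, Affymetrix Expression Console with RMA was used; its version and the build were not given in the sources used here. From 228 to 489 values of an array were below 0.1, unusual for RMA, and how they arose is unknown. Array medians were 43.5 to 47.5 intensity units.

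Deposited intensities were converted to log2. In the platform's annotation 23521 probe sets have 1 gene symbol, 1814 several and 16010 none. Probe sets with 1 symbol above the array median (50th percentile) on at least 2 arrays were kept (14617), and the brightest stood for its gene (13942 genes). The 10 arrays entered 1 limma model of the 4 group means (limma 3.58.1, R 4.3.3), moderated by eBayes with 6 residual and 3.63 prior degrees of freedom and checked on simulated data. Groups came from sample titles; no batch is given in the labels. The number of arrays limits the precision. Members, lists, motifs and tests were chosen with earlier results of these data known. The text names the 10 members, Pml, up to 4 genes per pathway list with the smallest p in wild type fasting and between the fasted groups, and the 10 genes nearest in profile to the mean of Mcm2 to Mcm7. Alternatives were centring, quantile normalization, no filter, a filter at the 70th percentile, the mean of probe sets, trend and robust moderation, the replicate block, the clock score as a covariate, the groups of 1 comparison alone, fasted knockout without replicates 1 and 2, and each array left out.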

Additional observations from a re-analysis of the deposited data

Results flagged for a closer look

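The response to fasting differed between Pml knockout and wild type, by the interaction term of limma at an adjusted p under 0.05, for 3 members: Mcm4 (2.20), Gins1 (2.19) and Pcna (0.69). Among other replication genes it differed for Mcm8 (1.67), Prim2 (1.36), Pold2 (1.32), Wdhd1 (1.32), Rpa2 (1.28), Mad2l1 (1.26), Atr (1.20), Topbp1 (0.97) and Rpa1 (0.93). Of all genes 2.11% were called in this way, against 3 of 9 members and 9 of 120 list genes. The values are log2 differences of the knockout response minus the wild type response, and each is positive. For Mcm4 they include fasted wild type values at or below the array median. For Gins1, Mcm8, Wdhd1 and Rpa2 they include such values in fed knockout too, so these sizes are not measured. Rpa2 was above the median on the fed wild type arrays alone and passed the filter through them. Gins1 and Mcm8 were above it on fed wild type replicate 1 and fasted knockout replicates 1 and 3 alone. They passed the filter only with the fasted knockout arrays. The calls of Gins1, Mcm8 and Rpa2 therefore cannot stand as tests of the interaction. None of these 12 calls held under every alternative: the lowest number of lost calls was 4, for Mcm4, Wdhd1 and Atr. Groups of 2 or 3 arrays are too small for the search for single outlying arrays.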

How the results depend on the processing

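The numbers of members called moved with single arrays and with clock state. For fasting in wild type, 5 of 9 members became 3 under the filter at the 70th percentile, which left 5 members to test, and 2 with the clock covariate (limma; 4 at an unadjusted p under 0.05); without single arrays it was 2 to 7. Between the fasted groups, 4 became 0 once the clock score was modelled and 0 when replicates 1 and 2 of fasted knockout were omitted (3 at an unadjusted p under 0.05 in each), and 2 to 7 without single arrays. For the interaction, 3 became 0 with no filter (5 unadjusted), 1 with the clock covariate and 0 without those 2 replicates (3 unadjusted), and 0 to 3 without single arrays. For fasting in knockout and between the fed groups it was 0 in all alternatives run. The replicate block gave 4, 0, 0, 4 and 2 members for wild type fasting, knockout fasting, fed, fasted and interaction. Over all 13942 genes the block called 2240, 0, 0, 1256 and 137 in the same order. With no filter the interaction called 4 of 22180 genes. With the clock covariate the calls over all genes were 1191 for wild type fasting, 58 between the fasted groups and 96 for the interaction. Of 13 same-number pairs of arrays, 1 had deviations from the group means correlated above 0.1 (-0.17 to 0.11). In a group of 2 arrays these deviations mirror each other, so this check cannot tell whether the numbers pair samples. Counts over all genes ranged over the alternatives from 1191 to 3256 (2990) for wild type fasting, 0 to 504 (234) for knockout fasting, 0 to 24 (12) fed, 6 to 1968 (1549) fasted and 0 to 520 (294) for the interaction, and those over the pathway lists from 18 to 45 (43), 0 to 4 (1), 0 to 0 (0), 0 to 36 (34) and 0 to 14 (9).

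Of 871 member values under alternatives, 767 kept direction and side of the threshold, 61 lost the call, 14 gained one and 29 changed sign, none of these from a called value; the causes were not tested. With the clock covariate Mcm7 (-0.17) and Ccnd1 (0.0763) turned for wild type fasting, Ccnd1 for knockout fasting (0.00101), Mcm7 (0.0612) and Ccnd1 (-0.0670) between the fasted groups and Ccnd1 for the interaction (-0.0753). Without fasted knockout replicates 1 and 2, Mcm2 (-0.44), Mcm3 (-0.28) and Mcm5 (-0.45) turned for knockout fasting, Mcm7 (0.0556) and Ccnd1 (-0.12) between the fasted groups, and Ccnd1 for the interaction (-0.42). Without single arrays, wild type fasting ranged for Mcm7 from -0.00161 to 0.55. Knockout fasting ranged for Mcm2 from -0.27 to 0.39, for Mcm3 from -0.21 to 0.24 and for Ccnd1 from -0.57 to 0.18. The fed comparison ranged for Mcm2 from -0.56 to 0.0937, for Mcm3 from -0.65 to 0.0824, for Mcm5 from -1.01 to 0.0257 and for Mcm6 from -0.20 to 0.28, and the interaction for Mcm7 from -0.21 to 0.34. The Pml difference stayed between -1.75 and -1.52. Signal over background limits Mcm3, Mcm6 and Gins1 most, and for Mcm4, Mcm5 and Gins1 the fitted size of a difference from fasted wild type is not measured beyond its bound.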

Other observations

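The genes nearest to the mean profile of Mcm2 to Mcm7 over the 10 arrays were sought by the root mean square difference of log2 values, each gene centred on its own mean. The 10 nearest named genes were Tmem237, Sri, Rtn4ip1, Slc25a40, Maged2, Fancm, Tradd, Agbl3, Daglb and Wdr63, with differences of 0.117 to 0.151, and 1 further symbol was passed over as predicted or numbered. The median over all genes was 0.415. Among the members the difference was 0.145 for Mcm3, 0.190 for Pcna, 0.214 for Mcm6, 0.309 for Mcm2, 0.334 for Mcm4, 0.398 for Mcm5, 0.420 for Ccnd1, 0.498 for Gins1 and 0.587 for Mcm7. Mcm7, itself part of the mean profile, was thus the member farthest from it. Fancm, which encodes a DNA translocase of the Fanconi anaemia pathway, averaged 6.22 in fasted knockout, 5.62 in fasted wild type, 5.92 in fed knockout and 6.31 in fed wild type. Sri, which encodes the calcium-binding protein sorcin, averaged 9.87, 9.22, 9.86 and 10.13 in the same 4 groups.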
